A study of Arabidopsis thaliana with 12 samples.

Results

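The comparison described here is that of Rak-2 roots under NH4+ with Rak-2 roots under NO3-, across all genes. It rests on 6 of the 12 libraries of the series, 3 from roots given NH4+ and 3 from roots given NO3-, which were chosen by their labels alone. Rak-2 is a natural accession (ecotype) of Arabidopsis thaliana, and the sample labels class it as NH4+-sensitive. Plants were kept 7 days in soil and 5 days on a hydroponic NO3- solution, and the roots were then treated for 1 day with 1 mM (NH4)2SO4 or with 1 mM Ca(NO3)2. The methods of the study also name 3 days in a nitrogen-free solution between the NO3- solution and the treatment. The sample labels do not give this period. By those methods both treatments were a resupply of nitrogen. The deposited table holds raw read counts per gene. The other 6 libraries came from Or-1, an ecotype labelled NH4+-tolerant, under the same treatments, and they entered the fit and are used below only where the response of Rak-2 was tested against theirs. The NH4+ was given as its sulfate salt, so a gene's response to the nitrogen form and its response to the added sulfate cannot be told apart, and each group is 1 inbred accession at 1 time.

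Plants take up nitrogen mainly as NO3- or NH4+. NO3- must be reduced to nitrite and then to NH4+ before it enters glutamine, and it also acts as a signal that switches on genes for its own uptake and reduction. NH4+ enters glutamine directly, its uptake acidifies the medium around the root and competes with other cations, and as the only nitrogen source it slows the growth of many species.

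The total count of a Rak-2 library lay between 16005610 and 22035857. Levels are given as CPM, the read count scaled by the effective size of the library with edgeR, in the order of replicates 1, 2 and 3, and every group has 3 libraries. The 3 NH4+ libraries resembled each other closely, with a common biological coefficient of variation of 0.158, and the 3 NO3- libraries had one of 0.343. Across genes, the log2 levels of the NO3- replicates 1 and 3 had a Pearson correlation of 0.921, below that of NO3- replicate 3 with any NH4+ library (0.946 to 0.951), while the NH4+ libraries had correlations of 0.979 to 0.989 with each other. Genes are not independent replicates, and these values only describe the libraries. Many of the results that change without NO3- replicate 3, NO3- replicate 1 or an NH4+ library are given with both values. Counts given once may change as well. These are whole roots, in which fewer cells of a type and less RNA per cell cannot be told apart.

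Of 19327 genes tested, 519 were higher and 658 were lower under NH4+ than under NO3-, by edgeR's quasi-likelihood test with a false discovery rate (FDR) below 0.05 and a log2 fold change beyond 1 in either direction, and this is what "called", "rose" and "fell" mean below. That is 2.69% of the tested genes in the upward direction, 3.40% downward and 6.09% in all, and these shares are the background for the gene groups below. The median log2 fold change was 1.64 among the genes that rose and -1.83 among those that fell. A change over 2 on the log2 scale was reached by 167 of the genes that rose and 284 of those that fell, and one over 3 by 67 that rose and 122 that fell. The 3 NH4+ libraries lay entirely above the 3 NO3- libraries for 518 of the 519 genes that rose and entirely below them for 636 of the 658 that fell, beside 15.8% and 16.3% of all genes tested, or 32.1% in either direction. With scaling by library size alone 687 genes rose and 545 fell, so that 55.8% of the calls were upward instead of 44.1%, and that scaling moved the median of all genes to 0.11, against -0.01 with TMM.

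**Figure D1:**
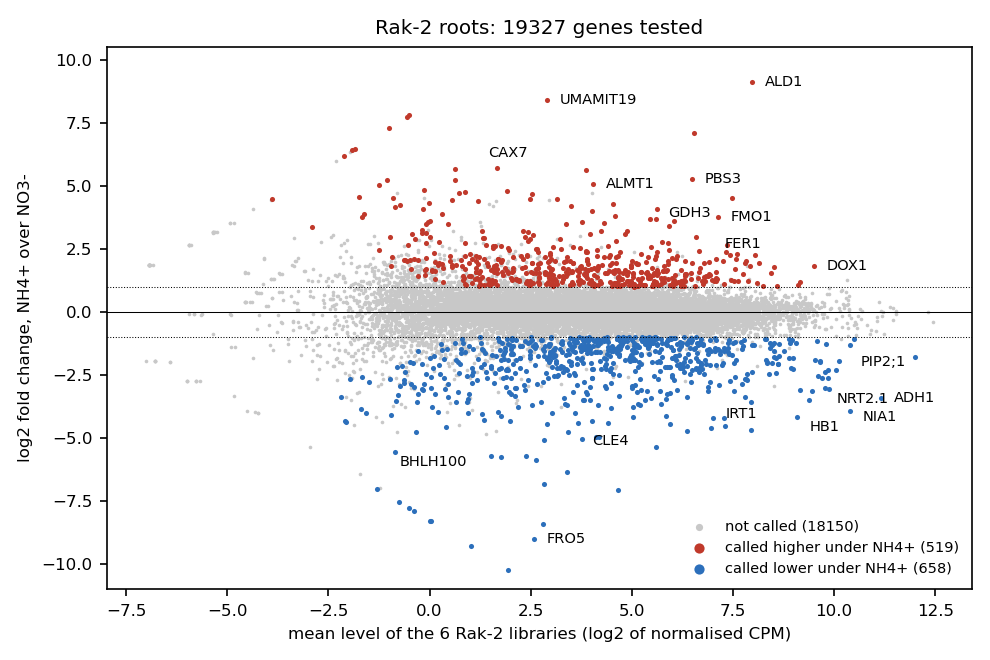
Log2 fold change (NH4+ over NO3-) of each of the 19327 genes tested against the log2 of its mean CPM in the 6 Rak-2 libraries. Red points are the 519 genes called higher under NH4+, blue points the 658 called lower, grey points the 18150 not called, and dotted lines mark a log2 fold change of 1 in either direction. ALD1 is the highest point at 9.10, and the abundant genes NIA1 and ADH1 lie at the lower right at -3.93 and -3.43.

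The calls depended on which libraries were included. A fit of the 6 Rak-2 libraries alone, without Or-1, called 415 genes higher and 478 lower, and 851 genes were called in both fits. Of the 1177 genes, 601 were called in all 6 fits that each left out one library, 283 upward and 318 downward. Leaving out NO3- replicate 3 raised the counts to 754 higher and 988 lower. Of those genes, 664 were not called with all libraries included. Leaving out NH4+ replicate 1 lowered the counts to 370 and 385. Among the 658 genes that fell, NO3- replicate 3 was the lowest of the 3 NO3- libraries for 407, and its median distance from the NH4+ mean was -1.25 on the log2 scale, against -1.62 for replicate 2 and -1.8 for replicate 1.

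The gene with the largest rise was ALD1 (AT2G13810), which encodes the aminotransferase that starts the synthesis of pipecolic acid from lysine. It had 396, 493 and 623 CPM under NH4+, against 0.279, 0.892 and 1.48 CPM under NO3-. Its lowest NH4+ library was far above its highest NO3- library, for a log2 fold change of 9.10 (standard error 0.54, edgeR adjusted p = 8.6e-06). AT5G38910, a cupin-fold (germin-like) protein, also rose, with 147, 178 and 226 CPM under NH4+, against 1.67, 1.46 and 0.93 CPM under NO3-, and a log2 fold change of 7.09 (standard error 0.60, edgeR adjusted p = 7.21e-05). UMAMIT19, of a family of amino acid exporters, had 11.2, 14.6 and 18.8 CPM under NH4+, against 0.14, 0 and 0 CPM under NO3-. All its NO3- libraries were at or under 3 counts, so it was at least 71-fold higher under NH4+. The calcium exchanger CAX7 was at least 29.7-fold higher on the same basis, the phosphotransmitter AHP4 at least 6.51-fold, the carboxypeptidase-like scpl22 at least 6.75-fold and the amino acid transporter family member AT5G16740 at least 4.8-fold. The other 3 of the 10 largest rises were the uncharacterized genes AT3G27250 and AT5G37730 and a newly assembled gene, all with every NO3- library at 0, and the call of AT5G37730 was lost in each of the 6 fits that left out a library.

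The largest falls had NH4+ libraries at or near 0. FRO5, a member of the ferric reductase family, had 0, 0 and 0.049 CPM under NH4+, against 18.4, 11.8 and 5.74 CPM under NO3-, and was at least 76.4-fold lower under NH4+. The pectin lyase-like AT1G05650 was at least 25.9-fold lower, and AT1G67270, annotated as a zinc-finger domain protein, had 0.351, 0.628 and 0.147 CPM under NH4+, against 122, 24.2 and 5.58 CPM under NO3-. The NO3- libraries of AT1G67270 were far apart, with replicate 1 highest and replicate 3 lowest, and all lay above the NH4+ libraries. AT2G17845, of the Rossmann-fold oxidoreductases, was at least 88.5-fold lower but was called in only 3 of the 6 fits with a library left out. The homeobox gene WOX2 was at least 13-fold lower, the receptor kinase AT2G19210 at least 12.9-fold, the endoglucanase family gene GH9A4 at least 9.73-fold, the amino acid transporter family member AT3G54830 at least 9.01-fold and AT1G07690, an uncharacterized protein, at least 7.53-fold. A newly assembled gene fell as well. In all, 22 of the genes that rose and 26 of those that fell had the other group at or under 3 counts in every library.

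Genes of NO3- uptake and reduction fell more often than they rose. Of 24 tested, 12 fell and 2 rose, with a median log2 fold change of -1.03 where the median of all genes was -0.01. In the fits that left out a library, 10 to 13 fell and 1 to 2 rose. The nitrate reductase NIA1 had 154, 147 and 198 CPM under NH4+, against 2393, 3224 and 2010.1 CPM under NO3-, and a log2 fold change of -3.93 (standard error 0.35, edgeR adjusted p = 9.91e-05). The second nitrate reductase, NIA2, had 209, 263 and 298 CPM under NH4+, against 2807, 1075 and 907 CPM under NO3-, and a log2 fold change of -2.64 (standard error 0.42, edgeR adjusted p = 0.00269). All NH4+ libraries of both genes lay well below all NO3- libraries. The plastid nitrite reductase NIR1 had 123, 102 and 98.3 CPM under NH4+, against 1979, 1083 and 637 CPM under NO3-, and a log2 fold change of -3.52 (standard error 0.38, edgeR adjusted p = 0.000263). The enzymes that serve nitrite reduction went with it, namely UPM1, which makes the precursor of the siroheme cofactor, at -2.71, the root ferredoxin reductases RFNR2 and RFNR1 at -2.65 and -1.68, and the plastid glucose-6-phosphate dehydrogenases G6PD3 and G6PD2, which supply reducing power, at -3.0 and -2.05. For NIR1, UPM1 and G6PD3 the NO3- libraries spread over a wide range with replicate 1 highest and replicate 3 lowest, and all were called in each of the 6 fits with a library left out.

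Among the transporters, the high-affinity carrier NRT2.1 had 201, 178 and 189 CPM under NH4+, against 1669, 1939 and 1039 CPM under NO3-, and a log2 fold change of -3.03 (standard error 0.30, edgeR adjusted p = 0.000168). Its partner protein NRT3.1 had 94.1, 104 and 105 CPM under NH4+, against 499.8, 725 and 474 CPM under NO3-, and a log2 fold change of -2.49 (standard error 0.24, edgeR adjusted p = 0.000125). The dual-affinity transporter and sensor NRT1.1 had 607, 471 and 333 CPM under NH4+, against 1353, 1224 and 569 CPM under NO3-. Here the groups overlapped, since NH4+ replicate 1 was above NO3- replicate 3, and the call (-1.16, edgeR adjusted p = 0.0373) remained in 1 of the 6 fits with a library left out. The vacuolar exchanger CLCA fell by 1.08 on the log2 scale, in 3 of those fits. The 2 genes that rose, NRT2.5 (3.87) and NRT2.4 (2.88), are high-affinity carriers known from nitrogen-starved plants, and both had under 3 CPM in every library. Reads of NRT2.1 and of its close copy may be split between them by the counting.

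**Figure D2:**
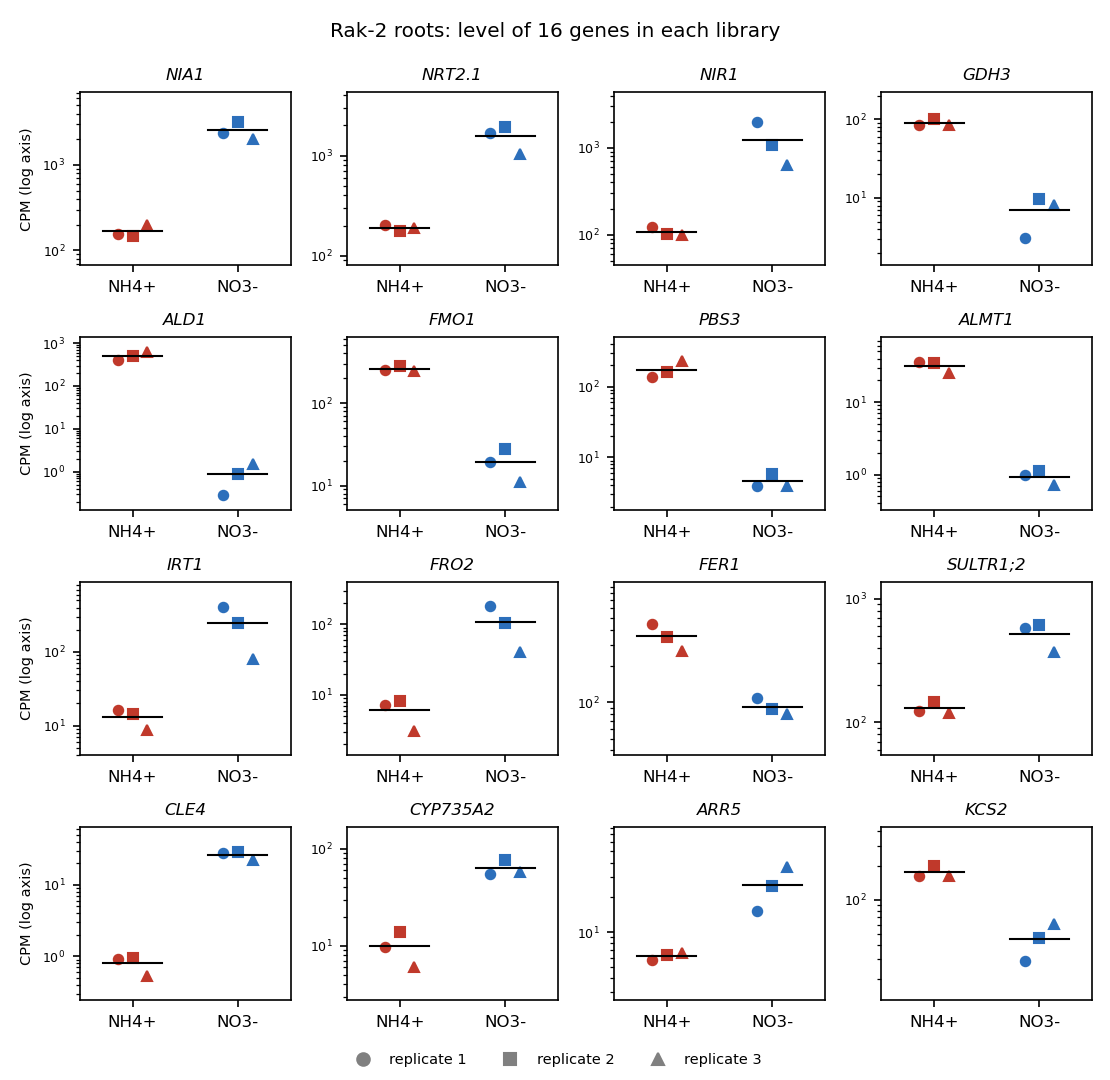
Level of 16 genes (CPM, log axis) in each Rak-2 library, with NH4+ on the left in red and NO3- on the right in blue. Symbols stand for the replicates and the black line for the mean of 3. The groups do not overlap for any of the 16 genes, and the NO3- libraries spread more than the NH4+ libraries for genes such as IRT1, where they had 402, 249.6 and 81.1 CPM.

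The regulators of the NO3- response fell or were not called. All 18 tested genes had a negative log2 fold change (median -0.93) and 8 were called. The myb-like factor AT3G25790 had 1.1, 0.785 and 1.27 CPM under NH4+, against 26.6, 40.4 and 33.6 CPM under NO3-, and a log2 fold change of -4.98 (standard error 0.43, edgeR adjusted p = 8.52e-05). Its relative HRS1 had 25.3, 27.2 and 19.7 CPM under NH4+, against 213, 231 and 192 CPM under NO3-, and a log2 fold change of -3.14 (standard error 0.25, edgeR adjusted p = 5.61e-05). The BTB and TAZ domain scaffold protein BT1 had 11.9, 11.5 and 16 CPM under NH4+, against 154, 342 and 415 CPM under NO3-, and a log2 fold change of -4.53 (standard error 0.53, edgeR adjusted p = 0.000425). The values of these 3 genes left a wide gap between the groups. BT2 (-3.65), the LOB domain factors LBD37 (-2.26) and LBD39 (-2.06), which repress NO3- uptake genes, the root MADS-box factor ANR1 (-1.66, called in 2 of the 6 fits with a library left out) and the myb-like AT1G25550 (-1.1) were the others called. The count of falls in this list was 5 without NH4+ replicate 1.

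Genes of NH4+ uptake and assimilation split. Of 20 tested, 3 rose and 2 fell (median 0.42). GLN1;4, a cytosolic glutamine synthetase, had 101, 128 and 115 CPM under NH4+, against 14, 29.3 and 31.3 CPM under NO3-, and a log2 fold change of 2.21 (standard error 0.38, edgeR adjusted p = 0.00438). GDH3, a mitochondrial glutamate dehydrogenase, had 84, 99.9 and 84.1 CPM under NH4+, against 3.07, 9.67 and 8.2 CPM under NO3-, and a log2 fold change of 3.66 (standard error 0.60, edgeR adjusted p = 0.00307). The asparaginase ASPGB1 had 13.6, 9.99 and 13.9 CPM under NH4+, against 3.14, 4.32 and 1.75 CPM under NO3-, and a log2 fold change of 2.02 (standard error 0.35, edgeR adjusted p = 0.00443). The 3 genes were clear of overlap and were called in all 6 fits with a library left out. The plastid glutamine synthetase GLN2 had 79.4, 75.4 and 59.4 CPM under NH4+, against 261, 217 and 110.2 CPM under NO3-, and a log2 fold change of -1.46 (standard error 0.27, edgeR adjusted p = 0.00668). The asparagine synthetase ASN2 had 38.9, 29.1 and 33.5 CPM under NH4+, against 115, 137 and 77.9 CPM under NO3-, and a log2 fold change of -1.70 (standard error 0.23, edgeR adjusted p = 0.000985). The transporters and the main cytosolic enzyme were not called. The ammonium transporter AMT1;1 was at -0.38 and AMT1;2 at 0.53, GLN1;2 at 0.04, GDH1 at 0.46 and GDH2 at 0.42. The asparagine synthetase ASN1 had 16.7 ± 9.56 CPM under NH4+ and 30.9 ± 20.01 CPM under NO3- (SD, n = 3 each) and was not called either. Without NO3- replicate 1, 5 genes of the list rose.

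Of 21 tested genes of organic nitrogen transport and turnover, 3 rose and 1 fell (median 0.55). UMAMIT19 is described above. The urea-proton symporter DUR3 had 105, 143 and 114 CPM under NH4+, against 9, 8.78 and 12 CPM under NO3-, and a log2 fold change of 3.61 (standard error 0.31, edgeR adjusted p = 8.99e-05). GDU2, of the glutamine dumper family of amino acid export regulators, had 28, 23.9 and 22 CPM under NH4+, against 3.63, 4.18 and 5.96 CPM under NO3-, and a log2 fold change of 2.42 (standard error 0.22, edgeR adjusted p = 0.000119). Both had every NH4+ library well above every NO3- library. The amino acid permease AAP3 fell, at -1.22.

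Genes of pipecolic and salicylic acid, 2 connected signals of plant defence, rose or were not called. Of 23 tested, 7 rose and none fell, 21 had a positive log2 fold change, and the median was 0.61. FMO1, which turns pipecolic acid into its active N-hydroxy form, had 253, 286 and 247 CPM under NH4+, against 19.3, 27.7 and 11.1 CPM under NO3-, and a log2 fold change of 3.75 (standard error 0.28, edgeR adjusted p = 4.02e-05). PBS3, which couples isochorismate to glutamate on the way to salicylic acid, had 136, 159 and 226 CPM under NH4+, against 3.98, 5.73 and 3.94 CPM under NO3-, and a log2 fold change of 5.25 (standard error 0.54, edgeR adjusted p = 0.0002). As for ALD1, the groups of both genes lay far apart. The isochorismate synthase ICS1 had 85.8, 99.9 and 122 CPM under NH4+, against 12.3, 21.1 and 22.3 CPM under NO3-, and a log2 fold change of 2.46 (standard error 0.30, edgeR adjusted p = 0.00055). The transcription factors CBP60G and WRKY70 rose by 2.02 and 2.79 on the log2 scale and DLO1, which hydroxylates salicylic acid, rose by 2.26. AT5G52810, a protein with an NAD(P)-binding Rossmann fold, had 4.22 ± 0.395 CPM under NH4+ and 3.2 ± 0.493 CPM under NO3- (SD, n = 3 each) and was not called (0.39, edgeR adjusted p = 0.0925). The count was 7 or 8 in each of the fits that left out a library.

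Few genes of other defence lists were called. Of 14 tested genes of camalexin and indole synthesis, none rose and 1 fell (median -0.44). That gene was CYP79B3, which turns tryptophan into the shared indole precursor, with 61.6, 61.3 and 66.4 CPM under NH4+, against 209.6, 163 and 179.6 CPM under NO3-, and a log2 fold change of -1.55 (standard error 0.13, edgeR adjusted p = 7.81e-05). Of 21 genes of glucosinolates, which are sulfur-rich defence compounds, the methylthioalkylmalate synthase MAM1 rose (1.22) and CYP81F4 fell (-1.14), each in 2 of the 6 fits with a library left out. Of 20 jasmonate genes 2 rose, and these were CYP94C1 (1.5), which oxidises the active hormone, and the sulfotransferase ST2A (2.0). The responsive repressor gene JAZ10 had 5.08 ± 3.38 CPM under NH4+ and 2.32 ± 0.756 CPM under NO3- (SD, n = 3 each) and was not called. Of 12 ethylene genes ACS2 fell, an enzyme of the hormone's precursor, with 3.46, 3.24 and 3.58 CPM under NH4+, against 27.6, 11.9 and 6.84 CPM under NO3-, and a log2 fold change of -2.16 (standard error 0.45, edgeR adjusted p = 0.0112). It was called in 4 of the 6 fits with a library left out, and none of the list fell without NH4+ replicate 1 or 2, while 3 fell without NO3- replicate 3.

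Among genes known to respond to low pH and aluminium, 5 of 15 rose and none fell (median 0.07). ALMT1, the malate channel of the root tip, had 35.7, 34.9 and 25.3 CPM under NH4+, against 0.977, 1.13 and 0.711 CPM under NO3-, and a log2 fold change of 5.08 (standard error 0.45, edgeR adjusted p = 9.3e-05). AT1G51340, of the MATE efflux carriers, had 41.9, 34.3 and 32.8 CPM under NH4+, against 8.09, 4.84 and 4.87 CPM under NO3-, and a log2 fold change of 2.62 (standard error 0.36, edgeR adjusted p = 0.00113). For both genes every NH4+ library was several times any NO3- library. GABA-T, which breaks down the amino acid GABA, had 431, 404 and 303 CPM under NH4+, against 94.1, 147 and 82.6 CPM under NO3-, and a log2 fold change of 1.81 (standard error 0.25, edgeR adjusted p = 0.00107). The polygalacturonase inhibitor PGIP1 (1.98) and the zinc-finger factor STOP2 (1.09) also rose, PGIP1 in 1 and STOP2 in 4 of the 6 fits with a library left out, and ALS3 (0.85, edgeR adjusted p = 0.00491) stayed under the fold threshold. Without NH4+ replicate 2 or NO3- replicate 3, 3 genes of the list rose.

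Of 13 genes of potassium and other cation transport, 2 rose and 1 fell (median 0.45). The cation/proton exchanger CHX17 had 27.1, 37.4 and 38.6 CPM under NH4+, against 1.88, 5.31 and 3.77 CPM under NO3-, and a log2 fold change of 3.21 (standard error 0.35, edgeR adjusted p = 0.000285). CAX7 had 6.17, 4.76 and 7.74 CPM under NH4+, against 0.209, 0.047 and 0.109 CPM under NO3-. SKOR, the channel that loads potassium into the xylem, had 25.2, 30.5 and 23.8 CPM under NH4+, against 104, 211 and 122 CPM under NO3-, and a log2 fold change of -2.46 (standard error 0.24, edgeR adjusted p = 0.000137). The high-affinity potassium carrier HAK5 had 262, 199 and 212 CPM under NH4+, against 88.9, 59.8 and 10.8 CPM under NO3-. All its NH4+ libraries were above its NO3- libraries, but the NO3- values were spread widely and the change of 2.08 was not called (edgeR adjusted p = 0.0557). With NO3- replicate 3 left out, 4 genes of the list rose.

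Most genes of iron acquisition fell, while iron storage genes rose or were not called. In Arabidopsis, roots short of iron switch on a reductase (FRO2), a carrier (IRT1) and factors of the bHLH family that control them, and store iron in ferritin when it is plentiful. Of 27 tested genes of acquisition, 15 fell and none rose, 25 had a negative log2 fold change, and the median was -1.69. IRT1 had 16.2, 14.2 and 8.77 CPM under NH4+, against 402, 249.6 and 81.1 CPM under NO3-, and a log2 fold change of -4.22 (standard error 0.50, edgeR adjusted p = 0.000443). FRO2 had 7.23, 8.16 and 3.09 CPM under NH4+, against 180.3, 104 and 40.2 CPM under NO3-, and a log2 fold change of -4.14 (standard error 0.51, edgeR adjusted p = 0.000619). In both genes NO3- replicate 3 was the nearest to the NH4+ libraries, and remained above all of them. The regulator BHLH38 had 1.86, 1.62 and 1.08 CPM under NH4+, against 32.9, 35.3 and 23.7 CPM under NO3-, and a log2 fold change of -4.33 (standard error 0.33, edgeR adjusted p = 4.02e-05). Its neighbour and close copy BHLH39, with which it may share reads, had 7.48, 10.1 and 5.39 CPM under NH4+, against 44.2, 49.5 and 37.2 CPM under NO3-, and a log2 fold change of -2.51 (standard error 0.28, edgeR adjusted p = 0.000368). The NH4+ libraries of both were far below the NO3- libraries. BHLH100 fell by the largest amount of the list at -5.72, and FRU, the central factor of the response, fell at -1.69.

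The others of the list that fell included the nicotianamine synthase NAS1 (-2.22), the oligopeptide transporter OPT3 (-2.17) and the mitochondrial reductase FRO3 (-1.57). Also lower were the coumarin enzyme CYP82C4 (-2.99), the oxygenase family gene AT3G12900 (-4.41), MYB72 (-2.84) and AT1G47395 (-2.42). The last were the zinc ion binding protein AT1G74770 (-2.02) and the iron-sensing ligase BTS (-1.13). The calls of BTS and MYB72 were kept in 2 of the 6 fits with a library left out. The count lay between 11 without NH4+ replicate 2 and 16 without NO3- replicate 3. Genes of iron storage went the other way, with 3 of 6 higher and none lower (median 1.05). In each of the 6 fits with a library left out 3 were higher, and 1 was lower without NO3- replicate 3. The ferritin FER1 had 448, 350.4 and 265 CPM under NH4+, against 108, 87.8 and 80.6 CPM under NO3-, and a log2 fold change of 1.95 (standard error 0.25, edgeR adjusted p = 0.000725). The vacuolar iron transporter-like genes VTL1 and VTL5 rose by 1.52 and 1.32 on the log2 scale.

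**Figure D3:**
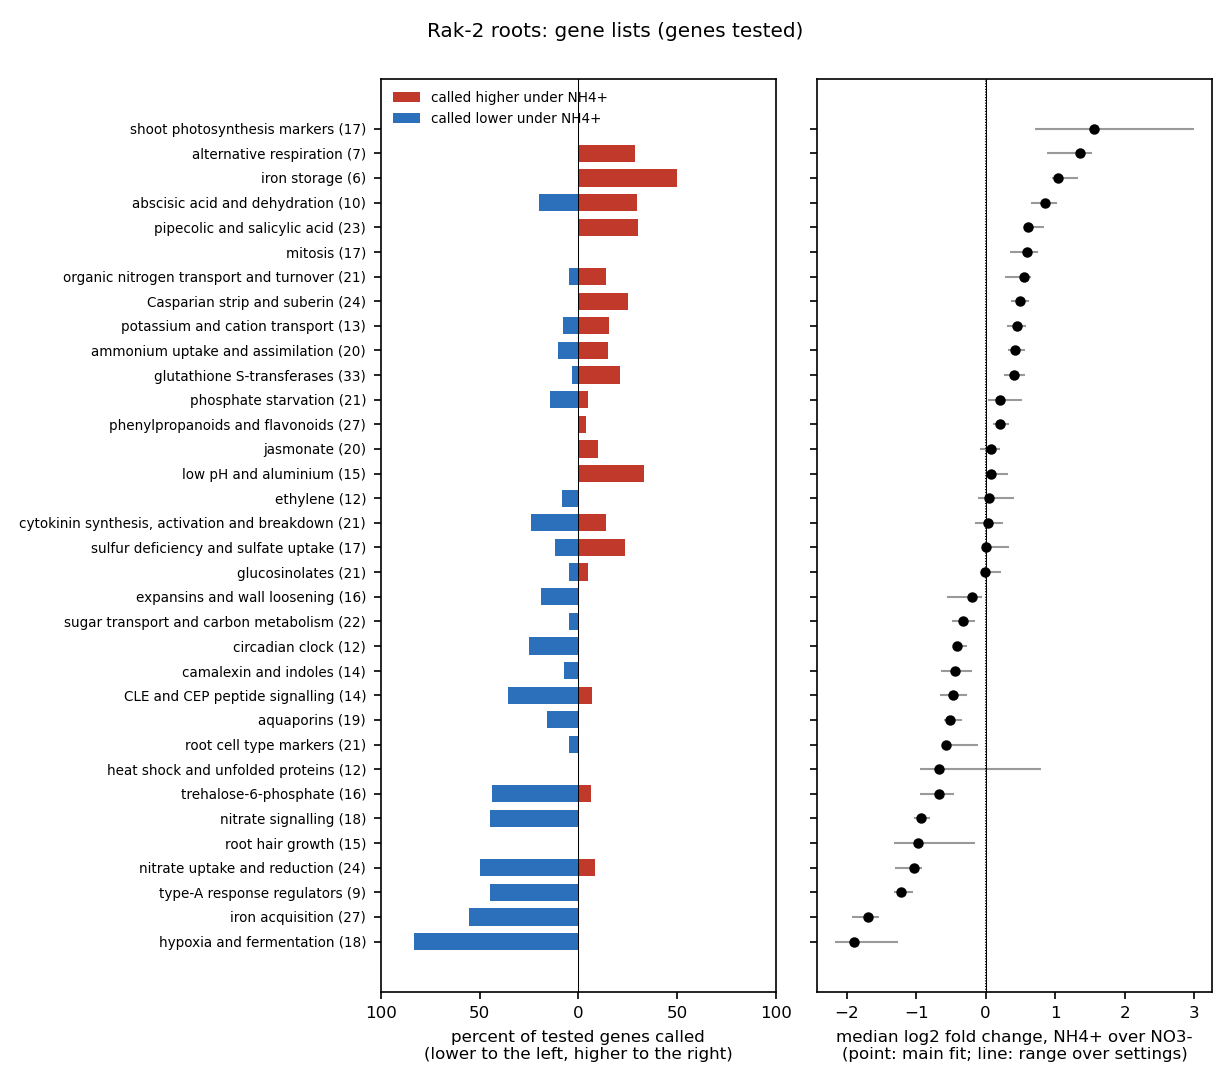
Each of the 34 gene lists, with the number of genes tested in brackets. The left panel shows the percent of tested genes called higher (red) or lower (blue) under NH4+ and the right panel the median log2 fold change (point) with its range over all fits (line), where the dotted line is the median of all genes. Hypoxia and iron acquisition lie at the bottom with medians of -1.90 and -1.69, and the shoot photosynthesis markers at the top (1.57) have no called gene and the widest range.

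Of 17 genes of sulfate uptake and sulfur deficiency, 4 rose and 2 fell (median 0.00). The root sulfate transporter SULTR1;2 had 124, 147 and 120 CPM under NH4+, against 575, 618 and 370.4 CPM under NO3-, and a log2 fold change of -2.0 (standard error 0.22, edgeR adjusted p = 0.000263). Its relative SULTR1;1 had 13.8, 15.5 and 21.8 CPM under NH4+, against 69.5, 125 and 64.3 CPM under NO3-, and a log2 fold change of -2.34 (standard error 0.29, edgeR adjusted p = 0.000572). These falls were called in all 6 fits with a library left out. The ATP sulfurylase APS1, which activates sulfate, had 903, 779 and 559 CPM under NH4+, against 292, 462 and 312 CPM under NO3-. All its NH4+ libraries were above its NO3- libraries, it rose by 1.07 on the log2 scale (edgeR adjusted p = 0.0212), and the call was kept in 2 of those 6 fits. SULTR2;1 (2.39), which loads sulfate into the vasculature, was called in 1 of them. The sulfur deficiency genes LSU3 (2.0) and LSU1 (at least 8.23-fold higher) rose at under 3 CPM, and SDI1 had 3.17 ± 0.792 CPM under NH4+ and 3.32 ± 0.932 CPM under NO3- (SD, n = 3 each). Without NH4+ replicate 2, 1 gene of this list rose.

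Of 21 tested genes of phosphate starvation, 1 rose and 3 fell (median 0.21). The phosphate carriers PHT1;1 and PHT1;2 fell by similar amounts, at -1.54 and -1.44, and are near-identical neighbours whose reads may be split. PHT1;1 had 198, 268 and 202 CPM under NH4+, against 856, 719 and 368 CPM under NO3-. The non-coding IPS1 fell at -3.01, with under 3 CPM in every library, and in 1 of the 6 fits with a library left out. The ribonuclease RNS1 rose, with 5.52, 3.98 and 3.67 CPM under NH4+, against 0.209, 0.235 and 0.164 CPM under NO3-. SPX1, a marker of phosphate shortage, had 26.5 ± 6.94 CPM under NH4+ and 19.2 ± 7.24 CPM under NO3- (SD, n = 3 each) and was not called. The list had 1 fall without NH4+ replicate 1 or 3 or NO3- replicate 2.

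Hypoxia and fermentation genes, which are switched on when oxygen is short, were lower under NH4+. All 18 tested had a negative log2 fold change (median -1.90), and 15 fell. For 17 all NH4+ libraries lay below all NO3- libraries, beside 16.3% of all genes tested. The non-symbiotic haemoglobin HB1, which also responds to NO3-, had 45.9, 78.7 and 46.1 CPM under NH4+, against 1821, 673 and 571 CPM under NO3-, and a log2 fold change of -4.17 (standard error 0.48, edgeR adjusted p = 0.000412). The alcohol dehydrogenase ADH1 had 289, 580.5 and 296 CPM under NH4+, against 9102, 1975 and 1522 CPM under NO3-, and a log2 fold change of -3.43 (standard error 0.70, edgeR adjusted p = 0.0103). The sucrose synthase SUS4 had 79.2, 155 and 119.9 CPM under NH4+, against 2316, 368 and 383 CPM under NO3-, and a log2 fold change of -3.11 (standard error 0.70, edgeR adjusted p = 0.0159). In each of these genes NO3- replicate 1 stood far above the other NO3- libraries, which were in turn above the NH4+ libraries. The pyruvate decarboxylase PDC1 (-2.33), the oxygen-sensing cysteine oxidases PCO2 (-2.89) and PCO1 (-1.43), SUS1 (-2.29), the desaturase SAD6 (-2.54), HRA1 (-1.95), HRE1 (-1.59) and the alanine aminotransferase ALAAT1 (-1.84) were also among those that fell.

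The size of this group's change depended on single libraries. The summed level of the 18 genes was 2050, 3222 and 2585 CPM under NH4+, against 26956, 7631 and 8089 CPM under NO3-. Without NO3- replicate 1 the median was -1.26 and 8 genes fell. Without NH4+ replicate 1, 3 fell, and without NO3- replicate 2 all 18 did. In the fit of the 6 Rak-2 libraries alone, 8 fell. The highly counted glycolytic enzyme GAPC2, chosen for its level, had a similar pattern, with 1949.7, 1917 and 1591 CPM under NH4+, against 10072, 5019 and 3937 CPM under NO3-, and a log2 fold change of -1.8 (standard error 0.35, edgeR adjusted p = 0.00775). In Or-1 the median of the list was -0.42 and 1 gene fell, and none of the 18 differences between the ecotypes was called.

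**Figure D4:**
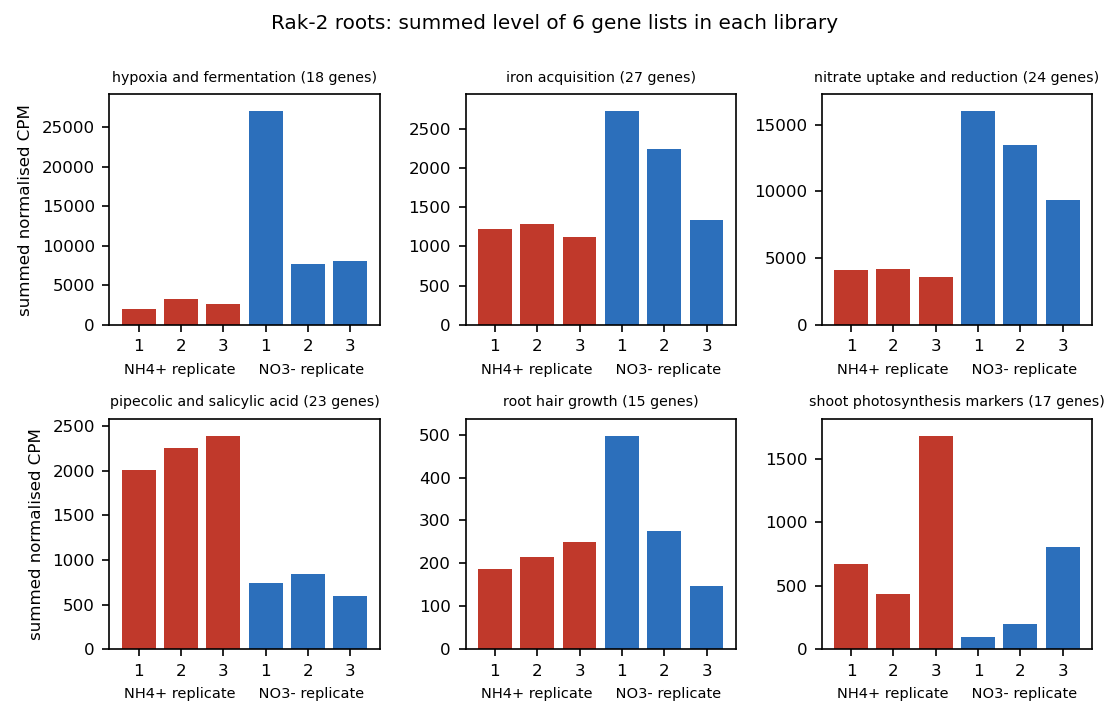
Summed CPM of 6 gene lists in each Rak-2 library, NH4+ replicates in red on the left and NO3- replicates in blue on the right of each panel, with bars from 0. Hypoxia genes summed to 26956 CPM in NO3- replicate 1 and to between 2050 and 3222 CPM under NH4+, and the shoot photosynthesis markers were highest in NH4+ replicate 3 and, among the NO3- libraries, in replicate 3.

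Of 16 trehalose-6-phosphate synthases and phosphatases, enzymes of a sugar signal, 7 fell and 1 rose (median -0.68). TPS10 had 48.5, 52.7 and 67 CPM under NH4+, against 221, 279 and 232 CPM under NO3-, and a log2 fold change of -2.12 (standard error 0.21, edgeR adjusted p = 0.000159). TPS8 had 13.2, 15.2 and 14.9 CPM under NH4+, against 66.8, 46.3 and 68.8 CPM under NO3-, and a log2 fold change of -2.07 (standard error 0.22, edgeR adjusted p = 0.000212). Both were called in all 6 fits with a library left out. TPPB (-1.63), TPPH (-1.69), TPPJ (-1.49), TPS11 (-1.48) and TPPA (-1.47) fell too and TPPD rose (1.09), while 3 genes fell without NH4+ replicate 1. Of 22 genes of sugar transport and carbon metabolism 1 fell, DIN10 of raffinose metabolism, with 219, 224 and 211 CPM under NH4+, against 479, 572 and 507 CPM under NO3-, and a log2 fold change of -1.25 (standard error 0.23, edgeR adjusted p = 0.00579). The phosphoenolpyruvate carboxylase PPC3, which refills the carbon skeletons used by assimilation, had 1232 ± 262 CPM under NH4+ and 641 ± 164 CPM under NO3- (SD, n = 3 each) and a change of 0.94 (edgeR adjusted p = 0.0226), under the fold threshold. Without NO3- replicate 3, 5 genes of the sugar list fell. Of 7 tested genes of alternative respiration 2 rose (median 1.35), the NADH dehydrogenase NDA2 with 35.9, 37.7 and 35.4 CPM under NH4+, against 13.1, 12.8 and 15.4 CPM under NO3-, and a log2 fold change of 1.40 (standard error 0.11, edgeR adjusted p = 5.46e-05), and the alternative oxidase AOX1A (1.35, edgeR adjusted p = 0.0478), which was called in 1 of the 6 fits with a library left out.

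Of 14 tested genes of the CLE and CEP peptide systems, which carry nutrient signals between cells and organs, 5 fell and 1 rose (median -0.47). CLE4 had 0.904, 0.942 and 0.539 CPM under NH4+, against 27.6, 29.1 and 22.1 CPM under NO3-, and a log2 fold change of -5.04 (standard error 0.39, edgeR adjusted p = 4.89e-05). CLE1 (-3.03), CLE2 (-2.38), CLE6 (-4.59) and CLE7 (-2.37) fell as well and none of these reached 10 CPM in a library. CLE3 had 1.9 ± 0.247 CPM under NH4+ and 1.26 ± 1.11 CPM under NO3- (SD, n = 3 each) and was not called. The protein phosphatase AT4G32950 rose, with 32.6, 32.5 and 32.7 CPM under NH4+, against 7.95, 6.43 and 7.22 CPM under NO3-, and a log2 fold change of 2.18 (standard error 0.12, edgeR adjusted p = 6.94e-06). Its NH4+ libraries were nearly identical. Without NH4+ replicate 2, 3 of the list fell.

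Cytokinins are hormones whose synthesis in roots is tied to NO3-. Of 21 tested genes of their synthesis, activation and breakdown, 5 fell and 3 rose (median 0.03). The isopentenyltransferase IPT3, which makes the first cytokinin, had 5.52, 5.49 and 10.3 CPM under NH4+, against 39.97, 49.97 and 27.1 CPM under NO3-, and a log2 fold change of -2.46 (standard error 0.30, edgeR adjusted p = 0.000619). CYP735A2, which hydroxylates it to the form carried in the xylem, had 9.64, 14 and 6.07 CPM under NH4+, against 55, 76.1 and 58.3 CPM under NO3-, and a log2 fold change of -2.68 (standard error 0.40, edgeR adjusted p = 0.00186). IPT5 (-1.32), CYP735A1 (-1.73) and the oxidase CKX4 (-2.96) fell in the same way, in each of the 6 fits with a library left out. The called activating enzymes rose. LOG5 had 19.5, 25 and 30.4 CPM under NH4+, against 0.767, 1.13 and 4.32 CPM under NO3-, and a log2 fold change of 3.57 (standard error 0.64, edgeR adjusted p = 0.00521). LOG7 (1.89) and LOG4 (1.81) rose too, and without NO3- replicate 3 the rises numbered 6. All 9 type-A response regulators, early targets of cytokinin, had a negative log2 fold change (median -1.22) and 4 fell. ARR5 had 5.67, 6.38 and 6.61 CPM under NH4+, against 15.1, 24.9 and 36.8 CPM under NO3-, and a log2 fold change of -2.04 (standard error 0.32, edgeR adjusted p = 0.00269). ARR7 (-1.90), ARR9 (-1.85) and ARR8 (-1.22) were the others, and the 4 were called in all 6 fits with a library left out.

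Of 10 tested genes of abscisic acid and dehydration, 3 rose and 2 fell (median 0.86). CYP707A3, which breaks the hormone down, had 5.82, 9.63 and 8.28 CPM under NH4+, against 56.7, 86.8 and 58.1 CPM under NO3-, and a log2 fold change of -3.09 (standard error 0.36, edgeR adjusted p = 0.000441). The NAC factor RD26, which the hormone induces, fell at -1.60. The phosphatase HAI1 had 5.92, 5.6 and 4.16 CPM under NH4+, against 0.698, 0.986 and 1.91 CPM under NO3-, and a log2 fold change of 2.11 (standard error 0.35, edgeR adjusted p = 0.00361). The dehydration genes RAB18 (at least 5.11-fold higher) and COR15A (4.43) rose at low counts, and 1 gene rose without NH4+ replicate 3 or NO3- replicate 1.

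Of 24 genes of the Casparian strip and of suberin, the wall barriers of the endodermis, 6 rose and none fell, 20 had a positive log2 fold change, and the median was 0.50. The called genes belong to suberin. KCS2, which elongates its fatty acids, had 164, 198 and 162 CPM under NH4+, against 29, 46.1 and 61.1 CPM under NO3-, and a log2 fold change of 1.94 (standard error 0.32, edgeR adjusted p = 0.00318). CYP86B1, an oxidase of the same acids, had 57.1, 61.8 and 69.2 CPM under NH4+, against 22.9, 17.5 and 22 CPM under NO3-, and a log2 fold change of 1.59 (standard error 0.22, edgeR adjusted p = 0.00121). The acyltransferases GPAT7 (1.54) and GPAT5 (1.11), the exporter ABCG6 (1.20) and the regulator MYB41 (2.94) also rose. CYP86A1 had 199 ± 24.2 CPM under NH4+ and 110.3 ± 18.2 CPM under NO3- (SD, n = 3 each) and CASP1, which builds the Casparian strip, had 89.9 ± 19.1 CPM under NH4+ and 73.8 ± 22.6 CPM under NO3- (SD, n = 3 each), and neither was called. The count was between 5 and 8 in the fits that left out a library.

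Of 19 aquaporins, 3 fell and none rose (median -0.51, 14 negative). PIP2;1 had 775, 900.5 and 638 CPM under NH4+, against 1854, 2120.2 and 1829.5 CPM under NO3-, and a log2 fold change of -1.33 (standard error 0.16, edgeR adjusted p = 0.000597). PIP1;1 had 925, 1120.1 and 739 CPM under NH4+, against 1636, 2439 and 1792 CPM under NO3-, and a log2 fold change of -1.08 (standard error 0.20, edgeR adjusted p = 0.00675). PIP2;3 had 32.2, 40.5 and 34.6 CPM under NH4+, against 183, 177 and 144 CPM under NO3-, and a log2 fold change of -2.23 (standard error 0.21, edgeR adjusted p = 0.00012). The NH4+ libraries of all these were below the NO3- libraries, and PIP2;3 shares long stretches with PIP2;2 (-0.91, under the fold threshold). The count reached 6 without NH4+ replicate 2 and was 2 without NH4+ replicate 3 or NO3- replicate 2.

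Of 16 genes of expansins and wall loosening 3 fell (median -0.19), namely EXPA17, with 1.25, 1.26 and 1.71 CPM under NH4+, against 29.2, 26.7 and 12.2 CPM under NO3-, and a log2 fold change of -4.0 (standard error 0.55, edgeR adjusted p = 0.00121), XTH20 (-1.33) and EXPA1 (-1.08), which was called in 3 of the 6 fits with a library left out. No gene of root hair growth was called among 15, with a median of -0.97 and 12 negative. Their summed level was 186, 216 and 250.3 CPM under NH4+, against 497, 274 and 146 CPM under NO3-, so the NO3- replicates lay on both sides of the NH4+ libraries. The hair expansin EXPA7 had 1, 2.04 and 3.67 CPM under NH4+, against 12, 9.44 and 1.7 CPM under NO3-, and without NO3- replicate 3, 5 genes of the list fell. Of 17 genes of mitosis none was called. Their median was 0.59, with 16 positive. For 12 of them all NH4+ libraries lay above all NO3- libraries, beside 15.8% of all genes tested. The cyclin CYCB1;1 had 17.7, 19.5 and 14.4 CPM under NH4+, against 7.32, 12.5 and 11.4 CPM under NO3-, edgeR adjusted p = 0.134. The median of this list stayed positive in all fits, from 0.35 to 0.75.

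Of 33 glutathione S-transferases, which detoxify reactive compounds, 7 rose and 1 fell (median 0.41). GSTU22 had 93.3, 126 and 113 CPM under NH4+, against 10.1, 12.3 and 9.02 CPM under NO3-, and a log2 fold change of 3.40 (standard error 0.15, edgeR adjusted p = 1.61e-06). GSTF8 had 862, 867 and 675 CPM under NH4+, against 364, 405 and 280.2 CPM under NO3-, and a log2 fold change of 1.20 (standard error 0.21, edgeR adjusted p = 0.00496). GSTU20 had 387, 294 and 167 CPM under NH4+, against 39.4, 66.8 and 30.7 CPM under NO3-, and a log2 fold change of 2.63 (standard error 0.43, edgeR adjusted p = 0.00334). The rises of GSTU24 (2.1), GSTU25 (3.22), GSTU8 (1.57) and GSTU7 (1.27) were of the same order, though several lie beside near copies that may share reads. GSTF14 fell, with 243, 224 and 227 CPM under NH4+, against 1282, 1846 and 1194 CPM under NO3-, and a log2 fold change of -2.64 (standard error 0.28, edgeR adjusted p = 0.000249). Of 27 genes of phenylpropanoids and flavonoids 1 rose (median 0.20), the flavonoid enzyme DFR, at least 14.5-fold higher, which was called in 1 of the 6 fits with a library left out. PAL1, the entry enzyme, had 744 ± 37.1 CPM under NH4+ and 499 ± 44.3 CPM under NO3- (SD, n = 3 each) (0.58, edgeR adjusted p = 0.0289) and CHS had 12 ± 11.4 CPM under NH4+ and 4.41 ± 2.78 CPM under NO3- (SD, n = 3 each). None of 12 heat shock and unfolded protein genes was called (median -0.68), and the sign of that median turned to 0.80 without NO3- replicate 1.

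Of 12 tested genes of the circadian clock, 3 that peak in the morning fell and none rose (median -0.41). CCA1 had 3.41, 5.18 and 6.76 CPM under NH4+, against 85.7, 37.1 and 73.7 CPM under NO3-, and a log2 fold change of -3.67 (standard error 0.70, edgeR adjusted p = 0.0069). PRR9 had 1.25, 1.67 and 1.67 CPM under NH4+, against 18.4, 5.17 and 9.73 CPM under NO3-, and a log2 fold change of -2.85 (standard error 0.44, edgeR adjusted p = 0.00222). RVE8 had 6.93, 7.59 and 6.91 CPM under NH4+, against 20.9, 17.2 and 29.3 CPM under NO3-, and was called in 1 of the 6 fits with a library left out. For all 3 the groups lay apart. The evening gene TOC1 had 110.3, 120.5 and 125 CPM under NH4+, against 145, 112 and 123 CPM under NO3-. Its groups overlapped (-0.09, edgeR adjusted p = 0.679), and LHY, the close partner of CCA1, had -0.33 and was not called. The time of day at harvest is not given in the sources used here.

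Markers of root tissues and of shoot photosynthesis were read as a check of the label. Of 21 tested markers of root tissues 1 fell, VND7 of xylem vessels (-2.11, called in 3 of the 6 fits with a library left out), and the median was -0.58. The stele factor SHR had 55.1 ± 3.5 CPM under NH4+ and 55.2 ± 5.18 CPM under NO3- (SD, n = 3 each). The endodermal factor SCR had 54.3 ± 6.38 CPM under NH4+ and 69.9 ± 23.6 CPM under NO3- (SD, n = 3 each), and MYB36, of the same layer, had 15.5, 18.8 and 17.8 CPM under NH4+, against 18.6, 19.6 and 15 CPM under NO3-, so markers of inner root tissues were present in all 6 libraries. The summed level of the list was 1916, 1761 and 2022 CPM under NH4+, against 1208, 2949 and 4618 CPM under NO3-, and most of it was the root glucosidase PYK10, with 1477, 1333 and 1595 CPM under NH4+, against 628, 2364 and 4215 CPM under NO3-. The 17 tested photosynthesis markers all had a positive log2 fold change (median 1.57) and none was called. Their summed level was 667, 435 and 1680 CPM under NH4+, against 92.4, 200.4 and 807 CPM under NO3-. The light-harvesting gene LHCB1.3 had 254, 148 and 675 CPM under NH4+, against 4.05, 57.4 and 247 CPM under NO3-. NH4+ replicate 3 and NO3- replicate 3 were the highest of their groups, the groups overlapped, and no marker was at 0 in any library. Without NO3- replicate 3 the median was 3.0 and 2 markers rose. The part of shoot-type RNA in the rises described above was not tested.

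The genes with the highest mean CPM among those called were also read, a choice that favours long transcripts. Among the rises these were DOX1, a dioxygenase of fatty acids, with 1073, 1158 and 1174 CPM under NH4+, against 434, 387 and 154 CPM under NO3-, and a log2 fold change of 1.8 (standard error 0.30, edgeR adjusted p = 0.0034), the membrane protein HIR2 with 497, 612 and 591 CPM under NH4+, against 193, 199.5 and 112 CPM under NO3-, and a log2 fold change of 1.75 (standard error 0.20, edgeR adjusted p = 0.000393), and PELPK1, a hydroxyproline-rich wall protein, with 489, 580.1 and 493 CPM under NH4+, against 160.4, 136 and 242 CPM under NO3-, and a log2 fold change of 1.54 (standard error 0.22, edgeR adjusted p = 0.00174), beside GSTF8 and APS1. Among the falls they were GAPC2, ADH1, NIA1, PIP2;1 and PIP1;1. DOX1, HIR2 and PELPK1 were called in all 6 fits with a library left out.

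The response of Rak-2 was then compared with that of Or-1, by testing the difference of the 2 log2 fold changes in the same model. Of the 519 genes that rose in Rak-2, 323 also rose in Or-1 and none fell there. Of the 658 that fell, 350 also fell in Or-1 and 9 rose. Or-1 itself had 1016 rises (5.26%) and 696 falls (3.60%), or 8.86% of the genes tested. The difference of response was called for 237 genes (1.23%), 29 with the larger value in Rak-2 (0.150%) and 208 with the smaller (1.08%), and among the genes called in Rak-2 for 24 of the rises and 37 of the falls. Without Rak-2 NO3- replicate 3 the difference was called for 613 genes, and without Rak-2 NH4+ replicate 1 for 69.

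ALD1 was the clearest case of a larger rise, with 9.10 in Rak-2 and 4.53 in Or-1. The difference was 4.57 (standard error 0.61, edgeR adjusted p = 0.00804), and it was called in all 12 fits that each left out one library. NIA1 fell by more in Rak-2 (-3.93, against -1.64 in Or-1), a difference of -2.29 (standard error 0.45, edgeR adjusted p = 0.0343) that was called in 6 of the 12 fits. NIA2 fell in Rak-2 (-2.64) and had 0.30 in Or-1, a difference of -2.94 (standard error 0.57, edgeR adjusted p = 0.0343) called in 4 of the 12 fits. SKOR fell by less in Rak-2 (-2.46, against -4.05 in Or-1), a difference of 1.59 (standard error 0.33, edgeR adjusted p = 0.0404) called in 3 of the 12 fits. In the camalexin and indole list none of 14 genes rose in Rak-2 and 10 rose in Or-1, and the difference was called for 10, all below Or-1. For aquaporins the difference was called for 6 of 19, all above Or-1, where 14 fell, against 3 in Rak-2.

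The 5 largest differences among genes called in Rak-2 included genes near the limit of detection in 1 ecotype or both. AT2G36770, a glycosyltransferase, had 0.1, 0.105 and 0.196 CPM under NH4+, against 3, 0.517 and 2.3 CPM under NO3- in Rak-2. Its log2 fold change was -3.77 in Rak-2 and 3.65 in Or-1, a difference of -7.42 (standard error 1.1, edgeR adjusted p = 0.0104) that was called in all 12 fits. In Or-1 it had 2.19, 1.79 and 1.41 CPM under NH4+, against 0.331, 0.0532 and 0.0441 CPM under NO3-. The lower group of each ecotype thus had few counts, and the call in Rak-2 was kept in 4 of the 6 fits with a library left out. AT1G11990, of the O-fucosyltransferases, had 3.56, 2.3 and 2.5 CPM under NH4+, against 26.9, 30.8 and 22.4 CPM under NO3- in Rak-2, and the log2 fold change there was -3.26. Every Or-1 library had 3 counts or fewer of this gene, so its response in Or-1 could not be measured and the fitted difference depends on the prior count. AT2G39400, an alpha/beta hydrolase, had a log2 fold change of -3.0 in Rak-2 and 1.66 in Or-1, a difference of -4.66 (standard error 0.71, edgeR adjusted p = 0.0118). AT3G24510, a defensin-like gene under 1 CPM in Rak-2, and AT1G07690 were the others. Their NH4+ libraries in Rak-2 had 3 counts or fewer, so the fitted differences depend on the prior count as well, and that of AT1G07690 was called in 1 of the 12 fits.

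**Figure D5:**
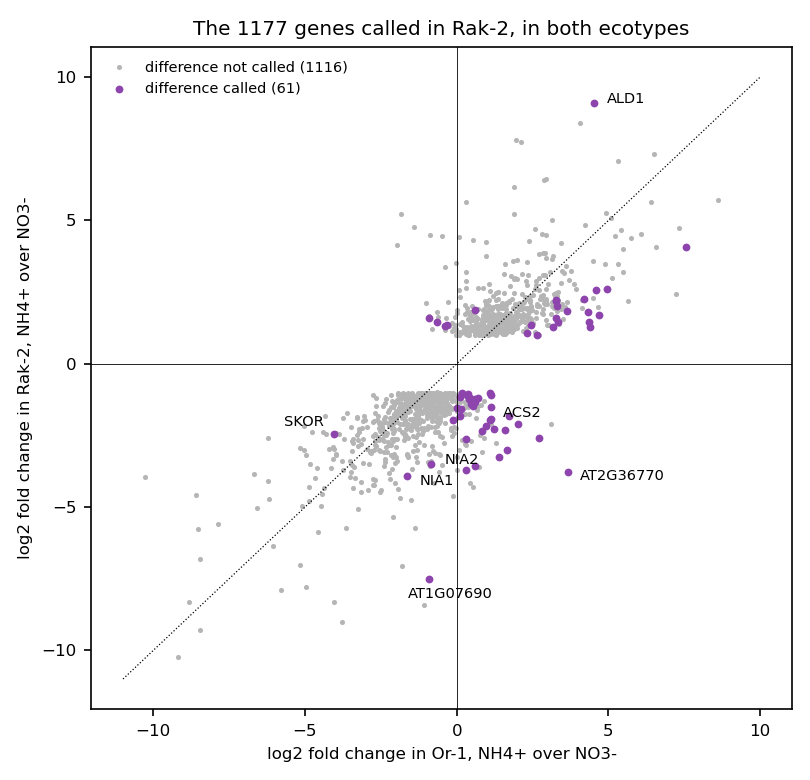
Log2 fold change (NH4+ over NO3-) in Rak-2 (vertical axis) against that in Or-1 (horizontal axis) for the 1177 genes called in Rak-2, where the dotted line marks equal change. Purple points are the 61 genes whose difference of response was called and grey points the 1116 others. The genes were chosen by their change in Rak-2, so the gap around 0 on the vertical axis is the call rule, and ALD1 stands apart at 9.10 in Rak-2 and 4.53 in Or-1.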

How the data were processed

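Roots of Rak-2 and Or-1 were sequenced as mRNA libraries (3 biological replicates in each of 4 groups) on an Illumina HiSeq. The authors deposited raw read counts per gene for all 12 libraries in one table; the aligner, counter, genome build and strand setting are not given in the sources used here. Their 3 tables of expression, fold changes, p-values and FDR for single comparisons hold their own results and were not used. The counts listed 26568 genes, of which 694 were newly assembled and 25670 matched RefSeq gene IDs; 4218 had no count in any Rak-2 library. Counts are reads, not molecules.

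Counts were scaled by TMM and tested in edgeR 4.0.16 (R 4.3.3) with the quasi-likelihood F test, which is two-sided, after filterByExpr (minimum count 10, total 15). All 12 libraries entered one fit with a coefficient per group, so that they shared the estimate of spread. Calls required an FDR (Benjamini-Hochberg, over the 19327 genes tested) below 0.05 and a log2 fold change beyond 1 in either direction. The difference of response (Rak-2 minus Or-1) was tested as an interaction in the same fit. Where every library of a group had 3 counts or fewer, the fold is a bound, computed as if the smallest library of that group, after scaling, held 3 counts. On simulated counts for 19172 genes, 51 of 67 genes changed by 1.5 on the log2 scale were recovered, 62 of 67 at 2 and 66 of 66 at 3, with 10 false calls. The changed genes were drawn only from those with a mean over 2 CPM, so recovery below that level was not tested. The simulated counts had the same spread per gene in every group. They leave out the wider spread of the real Rak-2 NO3- libraries, so they give no error rate for the real calls. The p-values rest on the spread between libraries within groups, estimated together over all groups. The common biological coefficient of variation was 0.343 for Rak-2 NO3-, 0.158 for Rak-2 NH4+, 0.223 for Or-1 NH4+ and 0.241 for Or-1 NO3-. The shared estimate can thus understate the spread of the Rak-2 NO3- libraries, and the p-values can be too small. The methods of the study do not say how plants and pots were divided among these libraries.

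The 34 gene lists (653 genes, 594 tested) are printed by name in the plot of gene lists; the comparison and the lists were chosen with earlier results of these data known. Named genes were the 10 largest changes each way among called genes with no overlap of the groups, the 5 called genes in each direction with the highest CPM, in each list its key genes and up to 6 called genes of largest change, and the 5 largest differences between ecotypes. Other genes named in a list were chosen after their values were seen. Alternatives were RLE, upper-quartile and library-size scaling, no filter, DESeq2 1.42.0, limma 3.58.1 voom with sample weights, glmTreat, FDR alone, the 6 Rak-2 libraries alone, a replicate block, and each library left out in turn. Figures were drawn with matplotlib 3.10.9. Promoter motifs were not analysed here.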

Additional observations from a re-analysis of the deposited data

Results flagged for a closer look

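The response to NH4+ differed between the ecotypes, by the interaction term of the edgeR fit (adjusted p under the 0.05 level), for 16 of the genes chosen by the naming rule, and for TPPD (-1.23). Values are Rak-2 minus Or-1 differences of the log2 fold change, and 3 libraries stood behind each group. The value was above 0 for ALD1 (4.57) and SKOR (1.59). Among nitrogen genes it was -2.29 for NIA1, -2.94 for NIA2 and -1.27 for GDH2, a glutamate dehydrogenase. Among genes of defence and hormones it was -3.13 for ACS2, -1.55 for CYP79B3, -1.46 for AT5G52810 and -1.04 for PAL1. It was -1.41 for EXPA1 and -1.08 for the phosphatase AT4G32950. Of the 12 fits that each left out a library, the difference was called in all 12 for ALD1, CYP79B3, AT5G52810 and AT2G36770, in 11 for AT4G32950, AT2G39400 and AT3G24510, in 9 for AT1G11990, in 7 for GDH2, in 6 for NIA1, in 4 for NIA2, in 3 for ACS2, PAL1 and SKOR, in 2 for EXPA1 and in 1 for AT1G07690 and TPPD. The largest negative values were those of the glycosyltransferase AT2G36770 (-7.42), AT1G07690 (-6.60), the defensin-like AT3G24510 (-5.30), the hydrolase AT2G39400 (-4.66) and the O-fucosyltransferase AT1G11990 (-4.65). Every library of Or-1 had 3 counts or fewer of AT1G11990, and every NH4+ library of Rak-2 had 3 or fewer of AT1G07690 and AT3G24510, so these 3 values depend on the prior count of the fit.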

How the results depend on the processing

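No call of a gene chosen by the naming rule changed direction. The direction of the other genes was not compared between settings. Outside the calls over all genes, 3671 values were the same, 326 weaker and 103 stronger. These values mix the calls of named genes with the counts of the gene lists. A named gene was judged by its call, and a list count by the size of its change. The 1177 calls (519 higher, 658 lower) became 274 (106 and 168) with glmTreat and 2295 (961 and 1334) with FDR alone. Leaving out one Rak-2 library gave 755 to 1742 calls, 352 to 754 higher and 385 to 988 lower, lowest without NH4+ replicate 1 for the total and highest without NO3- replicate 3. The 237 called differences between the ecotypes (29 above 0, 208 below) became 717 with DESeq2 (178 and 539), 1265 with voom (545 and 720) and 6 with glmTreat (1 and 5), and 53 were above 0 with library size alone. Leaving out one of the 12 libraries gave 69 to 613 differences, 7 to 130 above and 61 to 483 below. Same-numbered Rak-2 libraries deviated together with r of 0.14, -0.03 and 0.30, and NO3- replicate 1 deviated most like NH4+ replicate 2 (0.20). With 3 libraries in a group, these values cannot decide whether the numbers pair the Rak-2 samples. In Or-1 every library deviated most like the one of its own number (0.30, 0.30 and 0.45), a hint from the data and not from the design. With a replicate block 598 genes rose and 608 fell, and 46 differences were above 0 and 165 below. The cause of these shifts was not tested. Groups of 3 libraries limit what can be seen.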

Other observations

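Gene families were also read by their RefSeq product names, or by gene symbol for the ABCG, WRKY, NAC and UMAMIT families. They were chosen after the values were seen and are given as counts with no test. Counts by symbol leave out family members that bear another symbol. Of 42 lipid-transfer proteins, which carry lipids to the cell wall, 12 rose under NH4+ and 1 fell (median log2 fold change 0.39), beside 2.69% and 3.40% of all genes tested. Of 44 GDSL-like lipases 9 rose and 2 fell (0.43), of 31 ABCG transporters 5 rose and none fell (0.42), and of 37 members of the heavy metal transport/detoxification family 4 rose and none fell (0.29).

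Other families had more falls or moved both ways. Of 18 members of the berberine bridge enzyme family 4 fell and none rose (median -1.16), of 31 SAUR genes, a family of small auxin-induced proteins, 6 fell and 1 rose (-0.74), and of 102 C1 domain proteins 11 fell and 2 rose (-0.44). Without NO3- replicate 3 the falls numbered 6, 10 and 33 in these families in the same order, and without NH4+ replicate 1 they numbered 2, 3 and 5. Of 58 genes with a WRKY symbol 8 rose and 5 fell. Of 59 with a NAC symbol 7 rose and 2 fell, and of 35 with a UMAMIT symbol 4 rose and 6 fell. The NAC count leaves out RD26, a NAC factor under another symbol, which fell. Without NO3- replicate 1, 2 WRKY genes fell and 1 UMAMIT gene rose, without NH4+ replicate 1, 3 WRKY genes fell and 1 UMAMIT gene rose, and without NO3- replicate 3, 8 WRKY genes fell. The rises of the lipid-transfer proteins numbered 8 without NH4+ replicate 1 and those of the ABCG transporters 8 with library size alone. Members of such families share sequence, and reads may be split between close copies.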
